A study of Mus musculus with 4 samples.

Results

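The AP-1 and immediate early genes described here are 10 genes taken by symbol: Fos, Fosb, Fosl1, Fosl2, Jun, Junb, Jund, Atf3, Egr1 and Ier3. All 10 had a row in the deposited table, which held 24084 gene rows, and 9 passed the filter on low counts that left 12920 genes for testing. The RNA came from hair follicle stem cells sorted from skin epidermis of C57BL/6 mice aged 7 to 10 weeks, 4 days after depilation of the back, which starts a new hair growth phase. Of the 4 libraries, 2 were from WT mice (WT A and WT C) and 2 from Foxp3-DTR mice (Foxp3-DTR C and Foxp3-DTR D). Diphtheria toxin, 15 ng/g intraperitoneally, was given to mice of both genotypes. Foxp3-DTR mice make the toxin receptor in cells that express Foxp3, the defining transcription factor of regulatory T cells, so these cells were labelled depleted there and present in WT. The comparison addresses how gene expression in the stem cells differs without regulatory T cells. It is not stated whether each library was 1 animal or a pool, so p-values cover only the variation among these 4 libraries, and this may be technical.

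AP-1 is a dimer of basic leucine zipper (bZIP) proteins, a Jun protein with a Fos, Jun or ATF protein, that binds short palindromic DNA sites. Many of its genes are immediate early genes: growth factors, cytokines and stress switch them on within minutes through MAP kinases and factors already in the cell, and their RNAs decay quickly. In epidermis AP-1 acts in proliferation, differentiation and wound responses, and cell isolation by enzymes is itself known to induce several of these genes.

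Gene counts per library ranged from 13911765 to 15923154. All 10 bulge stem cell markers listed for the check passed the low-count filter, among them Cd34 (936 to 1709 CPM, the count divided by the library's size after scaling). Their directions differed. Cd34 (1667 against 1076 CPM) and Itga6 (848 against 523 CPM) had higher means in Foxp3-DTR than in WT. Lhx2 (432 against 796 CPM), Nfatc1 (397 against 535 CPM), Krt5 (12300 against 14950 CPM) and Sox9 (579 against 643 CPM) had lower means. For each of these the groups did not overlap, as was so for 45.7% of all tested genes. Each had an edgeR adjusted p above the threshold (0.0778 for Lhx2). For Lgr5, Tcf7l1, Krt15 and Krt14 the groups overlapped. The T cell markers Cd4 and Cd2 had 0 counts in every library, while Cd3g had 50 counts in WT A and at most 5 in the others. The 7 T cell markers found summed to 11.2 CPM in WT A and 2.55 to 2.79 CPM in the other libraries. The 10 myeloid markers found summed to 8.52 CPM in WT A and 2.52 to 6.52 CPM in the other libraries. The sums were 27.9 to 53.5 CPM for the 7 fibroblast markers and at most 1.66 CPM for the 4 endothelial markers. The 5 melanocyte markers summed to 32.2 and 18.1 CPM in WT A and C, and to 31.0 and 42.9 CPM in Foxp3-DTR C and D. Suprabasal keratinocyte markers split the replicates of each group, with sums of 9651 CPM (WT A) and 7520 CPM (Foxp3-DTR D) against 2133 CPM (WT C) and 1556 CPM (Foxp3-DTR C). Of the 7, Calml3 passed the test and separated the genotypes instead, at 1414 and 1149 CPM in WT and 355 and 507 CPM in Foxp3-DTR (log2 fold change -1.57 ± 0.25, edgeR adjusted p = 0.0486), and its part in the values below was not tested. The sums of sebaceous gland markers were 1760 CPM in WT A and 231 to 372 CPM in the other libraries. The Y-linked gene Ddx3y had 0 counts in WT and 117 and 83.5 CPM in Foxp3-DTR, and Xist stood at 861 and 2482 CPM in WT and at most 1.86 CPM in Foxp3-DTR. Sex, and the code that differs between the titles of the groups (DEP2 in WT, DEP3 in Foxp3-DTR), therefore cannot be told apart from genotype in any value below.

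The sequences upstream of 4 members are shown because they set the 2 genes that rose, Ier3 and Junb, beside the founding members Fos and Jun, which did not pass. They are RefSeq promoter sequences on GRCm38.p6, the assembly that mm10 names, at chr17:35821463-35821683 (plus strand), chr8:84978749-84978998 (minus strand), chr12:85473640-85473889 (plus strand) and chr4:95052223-95052472 (minus strand). Each is written 5′ to 3′ up to the base before the RefSeq transcript (Ier3 stops a little short of it, where the GENCODE transcript begins), and capitals mark the motif matches found.
Ier3: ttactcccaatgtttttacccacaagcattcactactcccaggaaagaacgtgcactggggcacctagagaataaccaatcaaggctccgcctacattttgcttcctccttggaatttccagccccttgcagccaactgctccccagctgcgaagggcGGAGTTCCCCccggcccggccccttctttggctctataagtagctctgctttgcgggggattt
Junb: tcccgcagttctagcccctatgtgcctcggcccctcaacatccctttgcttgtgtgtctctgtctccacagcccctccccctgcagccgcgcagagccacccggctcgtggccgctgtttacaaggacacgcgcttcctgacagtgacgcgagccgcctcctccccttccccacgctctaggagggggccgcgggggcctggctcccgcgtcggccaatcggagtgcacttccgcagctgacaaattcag
Fos: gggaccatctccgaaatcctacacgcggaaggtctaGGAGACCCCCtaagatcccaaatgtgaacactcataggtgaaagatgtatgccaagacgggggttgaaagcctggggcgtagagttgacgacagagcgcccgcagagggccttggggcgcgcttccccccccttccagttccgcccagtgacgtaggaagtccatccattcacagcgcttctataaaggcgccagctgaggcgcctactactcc
Jun: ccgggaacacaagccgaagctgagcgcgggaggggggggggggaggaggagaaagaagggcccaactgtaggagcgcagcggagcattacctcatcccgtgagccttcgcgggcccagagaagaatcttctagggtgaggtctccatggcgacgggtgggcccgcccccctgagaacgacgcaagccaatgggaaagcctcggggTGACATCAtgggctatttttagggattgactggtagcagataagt

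The 250 bases before the RefSeq start of 8 members (those of Fosl1 and Egr1 were not used) were searched on both strands for 7 motifs. The capitals in Ier3 match the κB site, the class of site bound by NF-kappaB, at -92 to -83 from the start, and those in Fos match it at -214 to -205. A κB match was found in 3.9% of the 32851 mouse promoter windows of that length. In Jun the capitals match TGACNTCA at -45 to -38, a pattern present in 7.49% of windows, which includes the cAMP response element TGACGTCA (1.55%) and was added after the sequences were seen. Junb had no match in this window. The AP-1 site TGACTCA (4.46% of windows), TGACGTCA itself, the CArG box bound by serum response factor (1.47%) and the STAT pattern TTCNNNGAA (7.02%) had no match in any of the 8 windows. Fosb and Fosl2, whose sequences are not printed, each had a κB match and a match to the EGR pattern GCGNGGGCG (4.7% of windows), and Fosl2 had 2 κB matches that overlap. Atf3 and Jund had no match to any of the 7 motifs in their windows. For Jund the RefSeq start lies upstream of the GENCODE gene start given below, so its window does not adjoin that start, and for Fosl2 it lies inside the GENCODE gene, so its window is not upstream of that gene. The absence of a match holds for these windows only.

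Of the 9 tested members, Junb and Ier3 (2 genes) were higher in Foxp3-DTR and 0 were lower, by the quasi-likelihood test of edgeR after adjustment over all genes. Over all 12920 genes 1.25% passed, 0.820% higher and 0.426% lower. At an unadjusted p under 0.05 there were 4 members higher (Fosl2, Junb, Atf3 and Ier3; 6.76% of all genes) and 2 lower (Jun and Jund; 7.89%). The same 6 were the members whose groups of libraries did not overlap, as was so for 22.0% of all genes in the higher and 23.7% in the lower direction. DESeq2 called 3 members higher (3.61% of all genes) and 0 lower (3.79%), and limma-voom 2 higher (0.542%) and 0 lower (0.178%). The median log2 fold change was 0.65 over the 9 tested members and -0.01 over all tested genes. The members were chosen with earlier results of these data known, so this difference is descriptive. With bulk RNA, a different mix of cells and a different amount of RNA per cell cannot be told apart.

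**Figure D1:**
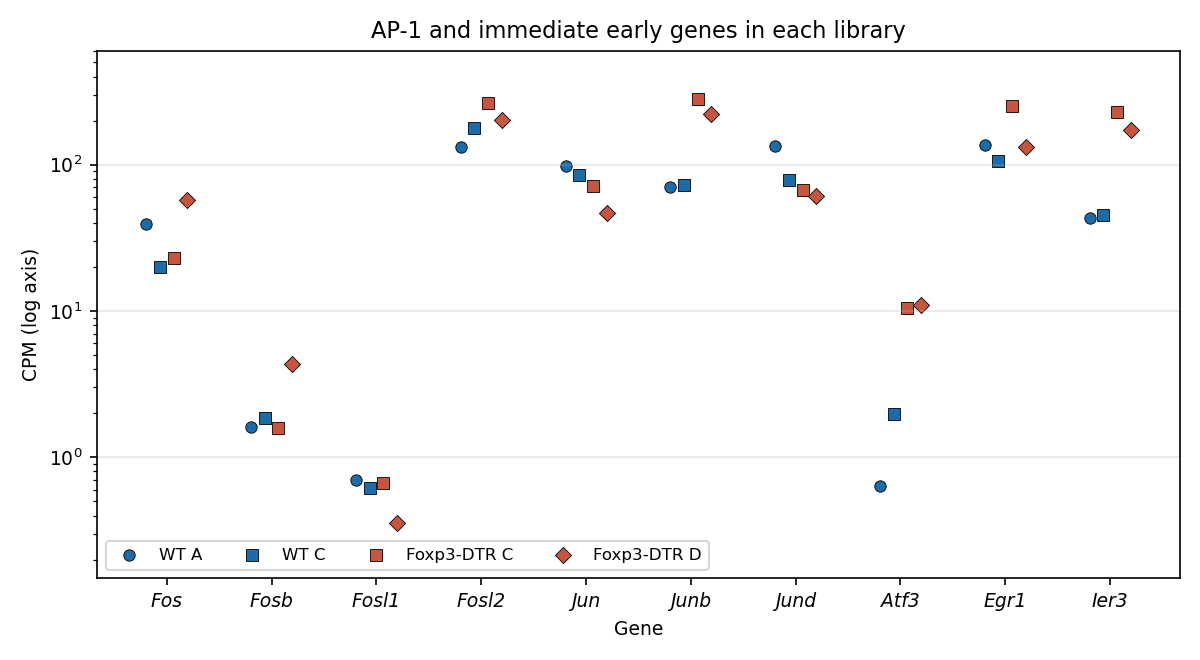
Level of each of the 10 genes in the 4 libraries, in CPM on a log axis; blue points are WT and red points Foxp3-DTR, and the shape marks the replicate letter. Junb, Ier3 and Atf3 are well apart between groups, while Fos and Fosb are highest in Foxp3-DTR D.

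Among the Jun proteins, Junb encodes a partner that activates weakly and can restrain Jun. Junb (chromosome 8, 84974484 to 84978718) stood at 70.4 and 72.8 CPM in WT A and C, and at 282 and 221 CPM in Foxp3-DTR C and D. The WT libraries nearly coincided, and both Foxp3-DTR libraries were far above them. Its mean was 71.6 ± 1.71 CPM in WT and rose to 252 ± 42.7 CPM (SD, n = 2 per group), which is 1.81 ± 0.20 (SE) on the log2 scale (edgeR adjusted p = 0.0174). Over the alternatives tried, Junb kept its call, with log2 fold changes from 1.63 to 1.98 and a highest adjusted p of 0.0411. Exons of Junb and of Prdx2, a peroxidase gene on the opposite strand, overlap by 173 bases, and the sources used here do not give the counter's strand setting. Prdx2 stood at 281, 182, 159 and 229 CPM in the same order, with a log2 fold change of -0.25 ± 0.28.

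Jun (chromosome 4, 95049034 to 95052222), the strong activator and the cellular counterpart of the v-jun oncogene, had a lower mean in Foxp3-DTR but did not pass. Its values were 97.4 and 85.0 CPM in WT A and C, and 71.8 and 46.8 CPM in Foxp3-DTR C and D. The groups did not overlap, and the log2 fold change was -0.62 ± 0.25, at an adjusted p of 0.315 in edgeR. Jund (chromosome 8, 70698949 to 70700616), which is present in resting cells and is linked to restraint of growth, stood at 135 and 78.4 CPM in WT A and C, and at 67.3 and 61.3 CPM in Foxp3-DTR C and D. WT A was far above the other 3 libraries, and WT C was close to Foxp3-DTR C. The log2 fold change was -0.73 ± 0.28 (edgeR adjusted p = 0.290). It was -0.27 without WT A, and -1.07 without WT C, where Jund passed (edgeR adjusted p = 0.0469). Annotated antisense genes overlap 232 bases of the Jun exon and 877 bases of the Jund exon, so without strand their reads cannot be told apart from Jun and Jund.

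The makeup of the Jun family differed between the groups more than between replicates. Levels of different genes are compared as CPM per kilobase of merged exons (GENCODE M21). The annotation used for counting is not given, so the shares, and the order by level further below, depend on these lengths. For Jund the length was 1668 bases, of which the antisense gene overlaps 877. On this scale Junb made up 21.5% and 30.1% of the summed Jun, Junb and Jund level in WT A and WT C, and 66.1% and 65.2% in Foxp3-DTR C and Foxp3-DTR D. Jund had the largest share in WT, at 57.0% and 44.6%, and held 21.8% and 24.9% in Foxp3-DTR. Jun held 21.5% and 25.3% in WT and 12.2% and 9.95% in Foxp3-DTR. The summed level was 142 and 105 CPM per kilobase in WT and 185 and 148 in Foxp3-DTR. The log2 ratio of Junb to Jun, a pair chosen after the values were seen, was -0.47 and -0.22 in WT and 1.97 and 2.24 in Foxp3-DTR. For the shares, the sum and the ratio the groups did not overlap, and the 2-sided exact permutation test gave p = 0.333, the smallest that 2 libraries against 2 allow. Shares within a library depend on each other, and all of these values contain Junb, so they are not separate from its rise. Mean levels per kilobase went from 31.1 in WT to 109 in Foxp3-DTR for Junb, from 28.6 to 18.6 for Jun and from 64.0 to 38.6 for Jund.

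**Figure D2:**
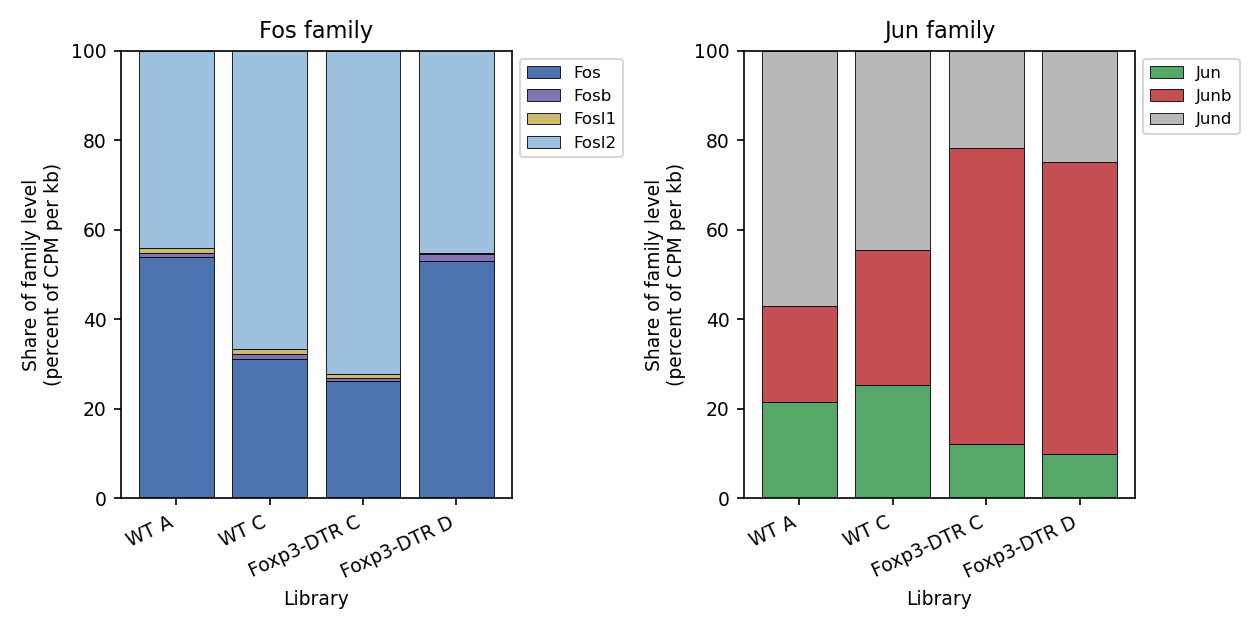
Share of each gene in the summed level of the Fos family (left) and of the Jun family (right) in each library, in percent of CPM per kilobase of exon. Junb holds 66.1% and 65.2% of the Jun family in the Foxp3-DTR libraries against 21.5% and 30.1% in WT, while the split of the Fos family between Fos and Fosl2 follows no group.

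Fos proteins cannot pair with each other and need a Jun partner. Fosl2 (chromosome 5, 32135801 to 32157842), which encodes Fra-2, a Fos protein without the strong activation domain of Fos, had the highest mean CPM of the members. It stood at 133 and 177 CPM in WT A and C, and at 262 and 202 CPM in Foxp3-DTR C and D. The lower Foxp3-DTR library was just above the higher WT library, and the log2 fold change of 0.58 ± 0.23 did not pass (edgeR adjusted p = 0.311). Fos (chromosome 12, 85473890 to 85477273), the archetype of the immediate early genes, stood at 39.4 and 20.1 CPM in WT A and C, and at 22.9 and 57.5 CPM in Foxp3-DTR C and D. The groups overlapped, and the difference of 0.44 ± 0.53 (log2) did not pass (edgeR adjusted p = 0.797). The libraries with more Fos, WT A and Foxp3-DTR D, were those with the higher sums of suprabasal markers given above. The part of suprabasal cells in the Fos values was not tested by itself. In the fit with a suprabasal covariate, described below, the log2 fold change of Fos was 0.50 (edgeR adjusted p = 0.201). Without Foxp3-DTR D the log2 fold change of Fos was -0.36.

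The other Fos genes were scarce. Fosb (chromosome 7, 19302696 to 19310051), a close relative of Fos, had 23 and 30 counts in WT and 24 and 61 counts in Foxp3-DTR, or 1.62, 1.85, 1.59 and 4.32 CPM. Foxp3-DTR D alone was high. The log2 fold change of Fosb was 0.77 ± 0.77 (edgeR adjusted p = 0.742), and -0.11 without Foxp3-DTR D. Fosl1 (chromosome 19, 5447547 to 5455946), which encodes Fra-1, had 10, 10, 10 and 5 counts and was not tested. Of its exons 1163 bases overlap Ccdc85b on the opposite strand, which stood between 31.1 and 36.8 CPM. On the scale per kilobase Fos held 53.9% of the Fos family in WT A and 53.0% in Foxp3-DTR D, and Fosl2 held 66.8% in WT C and 72.4% in Foxp3-DTR C. The ratio of the summed Fos family to the summed Jun family was 0.218 and 0.261 in WT and 0.202 and 0.312 in Foxp3-DTR, with no separation of the groups (2-sided exact permutation p = 1).

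Atf3 (chromosome 1, 191170296 to 191218039), a stress-induced bZIP partner that often represses, had the largest fold change of the tested members but did not pass. It had 9 and 32 counts in WT A and WT C and 157 and 154 counts in Foxp3-DTR C and Foxp3-DTR D, or 0.634, 1.97, 10.4 and 10.9 CPM. The Foxp3-DTR libraries were alike and the WT libraries differed from each other. The difference was 3.02 ± 0.65 on the log2 scale (edgeR adjusted p = 0.0823). Atf3 passed the low-count minimum of 0.67 CPM in 3 libraries, of which 1 was WT. It passed the test in DESeq2 (adjusted p = 0.000399), without the filter on low counts (edgeR adjusted p = 0.0266) and without WT C (0.0438), among others, and the highest adjusted p over the alternatives was 0.19, without Foxp3-DTR C.

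Egr1 and Ier3 are immediate early genes outside AP-1. Egr1 (chromosome 18, 34859823 to 34864984), a zinc finger factor induced through serum response factor, stood at 137 and 106 CPM in WT A and C, and at 250 and 132 CPM in Foxp3-DTR C and D. Only Foxp3-DTR C was high, and Foxp3-DTR D lay within the WT range. The log2 fold change was 0.65 ± 0.33 (edgeR adjusted p = 0.455), and 0.12 without Foxp3-DTR C. Ier3 (chromosome 17, 35821684 to 35822923) encodes a small protein that modulates survival and ERK signalling and is a known NF-kappaB target. Its values were 43.2 and 45.0 CPM in WT A and C, and 230 and 174 CPM in Foxp3-DTR C and D. As for Junb, the WT libraries nearly coincided and both Foxp3-DTR libraries were far above them. The mean of Ier3 was 44.1 ± 1.32 CPM in WT and rose to 202 ± 40.2 CPM (SD, n = 2 per group), or by 2.20 ± 0.21 on the log2 scale (edgeR adjusted p = 0.0108). Ier3 passed in all 9 alternatives, with log2 fold changes from 1.98 to 2.39.

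**Figure D3:**
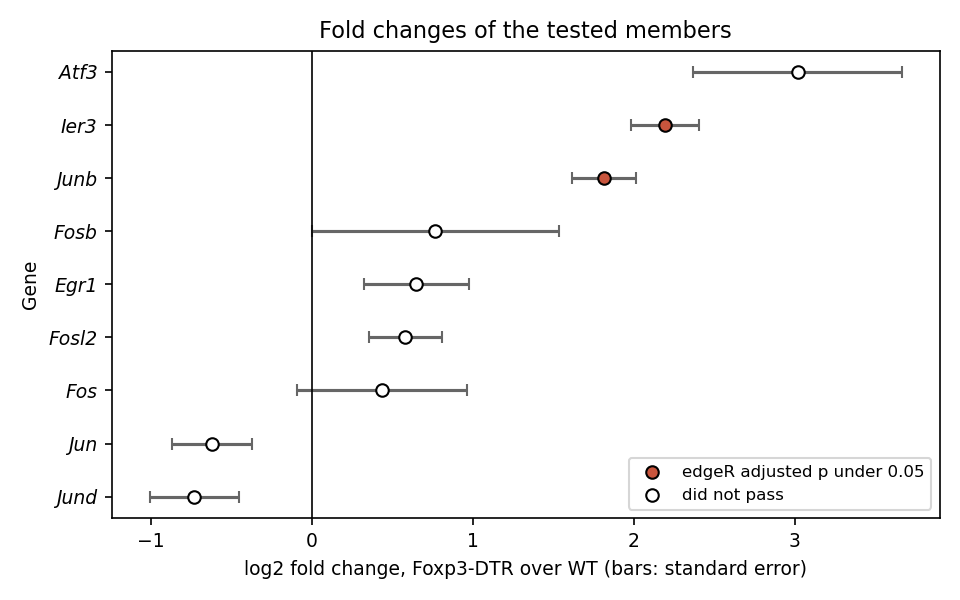
Log2 fold change of the 9 tested members, Foxp3-DTR over WT, with the standard error as bars; filled points passed the edgeR threshold. Junb (1.81) and Ier3 (2.20) passed, Atf3 (3.02) had a larger value with a wider error, and Jun and Jund lie below 0.

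Ordered by mean level per kilobase, the leading gene in WT was Jund at 64.0 CPM per kilobase, followed by Ier3 (39.0), Junb (31.1), Jun (28.6), Egr1 (27.1), Fosl2 (16.0) and Fos (12.6). In this order the WT values of Jun and Egr1, and of Fosl2 and Fos, overlapped, and the other neighbours did not. Atf3 (0.604), Fosl1 (0.324) and Fosb (0.278) were far below, at few counts each. In Foxp3-DTR Ier3 led at 179 CPM per kilobase, then came Junb (109), Egr1 (42.5), Jund (38.6), Fosl2 (24.0), Jun (18.6) and Fos (17.1). There Ier3 and Junb did not overlap, while Egr1, Jund, Fosl2, Jun and Fos formed a graded series. In it Egr1 and Jund overlapped, and Fosl2, Jun and Fos all overlapped each other.

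The genes nearest to Ier3 by the Euclidean distance between centred log2 CPM values over the 4 libraries, among 11179 genes whose average log2 CPM was 2 or more, were 4933426M11Rik (0.147), Irf9 (0.165) and Sbno2 (0.21). Their log2 fold changes were 2.18, 2.26 and 2.33. For Fosl2, the member with the highest mean CPM, they were Rasa2 (0.0432), Igf2r (0.046) and Slc1a5 (0.0559), with log2 fold changes of 0.60, 0.61 and 0.57 (edgeR adjusted p = 0.405, 0.289 and 0.435). Over 4 libraries such a distance describes these libraries only. Fold changes close to that of the member follow from choosing genes by this distance.

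Other immediate early genes were counted as a list, which is broad, and not all of its genes need share the inducers of the members. Like the members, the list was chosen with earlier results of these data known, so its values are descriptive. Of 41 tested, 6 rose in edgeR's test after adjustment over all genes and 0 fell (0.820% and 0.426% of all genes). At an unadjusted p under 0.05, 15 were higher and 5 lower (6.76% and 7.89% of all genes). DESeq2 called 13 higher and 3 lower (3.61% and 3.79% of all genes), and limma-voom 4 and 0 (0.542% and 0.178%). The median log2 fold change was 0.53, and 65.9% had groups that did not overlap, against 45.7% of all tested genes. Socs3, a feedback inhibitor of cytokine receptor signalling, stood at 27.1 and 30.1 CPM in WT and at 194 and 176 CPM in Foxp3-DTR, a difference of 2.69 ± 0.19 in log2 (edgeR adjusted p = 0.0033). Myc, a growth regulator, rose from 58.6 ± 8.62 to 212 ± 54.8 CPM (log2 fold change 1.86 ± 0.25). Btg2, an antiproliferative gene, rose by 1.33 ± 0.18 and the zinc finger factor Klf6 by 1.13 ± 0.17. Btg1, a relative of Btg2, and Zfp36, which speeds decay of AU-rich RNAs, were the other genes that passed, by 1.502 and 1.21, and are named after their values were seen. The 5 genes lower at an unadjusted p under 0.05, also named after their values were seen, were Gadd45g, Ier5, Gadd45a, Ier5l and Id1. Their log2 fold changes were -1.63, -1.54, -1.28, -0.86 and -0.55. Without Foxp3-DTR C, 2 genes of the list rose, Socs3 and Nfkbiz, an atypical IkappaB protein named for this value.

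**Figure D4:**
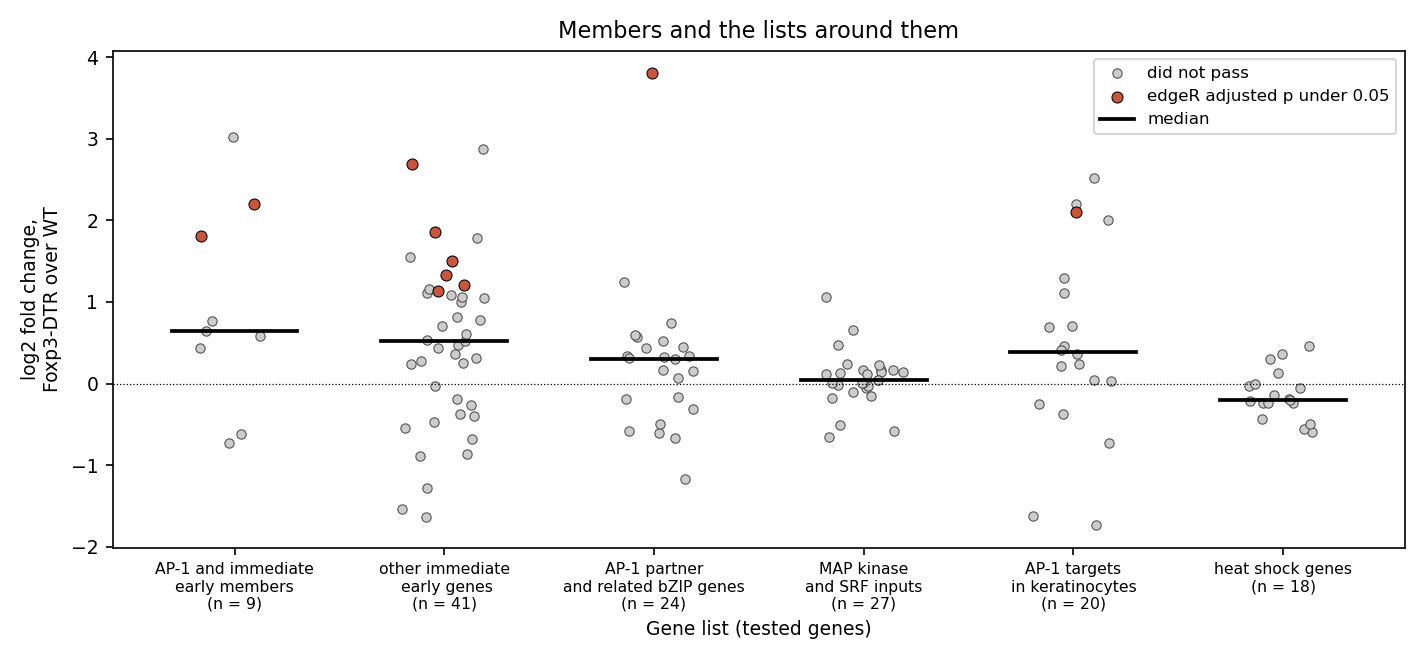
Log2 fold change (Foxp3-DTR over WT) of every tested gene of the members and of 5 lists, 1 point per gene, with the median as a bar and genes past the edgeR threshold filled. The list of other immediate early genes has 6 filled points and a median of 0.53, while heat shock genes have 0 filled points and a median of -0.20.

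Genes for other bZIP proteins, which pair with AP-1 proteins or share their DNA sites, were also counted. Of 24 tested, 1 rose in edgeR's test and 0 fell (0.820% and 0.426% of all genes). At an unadjusted p under 0.05 there were 5 higher and 2 lower, where 6.76% and 7.89% of all genes were, and the median log2 fold change was 0.31. DESeq2 tested 25 of the list and called 4 higher and 0 lower (3.61% and 3.79% of all genes). The limma-voom counts were 1 and 0 (0.542% and 0.178%). The gene that rose was Cebpd, an acute phase transcription factor, at 9.65 and 13.2 CPM in WT and 175 and 145 CPM in Foxp3-DTR, a difference of 3.80 ± 0.25 in log2 (edgeR adjusted p = 0.0033). This is larger than the value of each of the 9 tested members.

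The kinases and factors that act before the immediate early genes were counted as a list of MAP kinase and serum response factor inputs. Of 27 tested, 0 passed in edgeR's test or limma-voom (1.25% of all genes passed in edgeR's test). DESeq2 called 1 higher and 0 lower (3.61% and 3.79% of all genes). At an unadjusted p under 0.05 there were 3 higher and 1 lower (6.76% and 7.89% of all genes). The list's median log2 fold change was 0.05. Its smallest p was that of Map3k5, a stress-activated kinase upstream of JNK and p38, at 21.4 and 20.2 CPM in WT and 41.8 and 44.9 CPM in Foxp3-DTR (log2 fold change 1.06 ± 0.22, edgeR adjusted p = 0.0771). Activity of these kinases is set by phosphorylation, which RNA levels do not measure.

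Of 20 tested AP-1 targets in keratinocytes 1 rose in edgeR's test and 0 fell (0.820% and 0.426% of all genes). At an unadjusted p under 0.05 there were 4 higher and 2 lower (6.76% and 7.89% of all genes). DESeq2 tested 23 of the list and called 4 higher and 2 lower (3.61% and 3.79% of all genes). The limma-voom counts were 1 and 0 (0.542% and 0.178%). The median log2 fold change was 0.39. The target that rose was Nqo1, a quinone reductase best known as a target of Nrf2, from 46.9 ± 3.45 to 201 ± 52.9 CPM (log2 fold change 2.097 ± 0.24, edgeR adjusted p = 0.0186). The wound keratins Krt16 and Krt6b, named after their values were seen, stood highest in Foxp3-DTR D (104 and 35.8 CPM). In Foxp3-DTR C they stood at 30.2 and 4.38 CPM, where Krt6b was below its 5.14 CPM in WT A. Without Foxp3-DTR C their log2 fold changes were 2.83 and 3.35, and without Foxp3-DTR D 1.05 and 0.32. The 2 targets lower at an unadjusted p under 0.05, also named after their values were seen, were the keratin Krt17 and Ccnd1. Krt17 stood at 4236 and 2202 CPM in WT and at 1024 and 915 CPM in Foxp3-DTR. Its log2 fold change was -1.73 (edgeR adjusted p = 0.0719), and that of Ccnd1 was -1.62 (0.157).

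Heat shock genes, which are induced together with immediate early genes when tissue is dissociated, were listed beside them. Of 18 tested, 0 passed in edgeR's test, DESeq2 or limma-voom (1.25% of all genes passed in edgeR's test). At an unadjusted p under 0.05 there were 0 higher and 2 lower (6.76% and 7.89% of all genes). The list had 4 positive and 14 negative log2 fold changes, with a median of -0.20. Its smallest p was that of Dnajb4, a co-chaperone, at 60.6 and 59.0 CPM in WT and 38.7 and 40.7 CPM in Foxp3-DTR (log2 fold change -0.59 ± 0.19, edgeR adjusted p = 0.202). The part of cell isolation in the values of the members was not tested.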

How the data were processed

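Gene expression was measured by RNA sequencing (stranded poly(A) libraries, per the labels' protocols) in 2 WT and 2 Foxp3-DTR libraries, grouped by their titles. The deposited table gives counts, as whole reads for each symbol with no normalization. The submitters' processing notes name the counter HTSeq 0.6.1, the aligners TopHat2 2.0.12 and Bowtie2 2.1.0.0, CASAVA 1.8.2, SAMtools 0.1.19.0 and build mm10. The sources used here do not give the annotation or the strand setting. The 5 special rows that name no gene took 62.0% to 70.1% of each library, mostly alignments that were not unique (51.8% to 61.3%), and were left out. A count of 0 allows 3 counts, at most 0.213 CPM; floors like this allow for counting error alone.

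The groups were compared with edgeR 4.0.16 in R 4.3.3 (TMM factors, filterByExpr, robust glmQLFit and glmQLFTest, no covariate) over 12920 genes, with a Benjamini-Hochberg threshold of 0.05. CPM use TMM library sizes. Standard errors come from the fold change and the F statistic. The common biological coefficient of variation was 0.309. The procedure was tested on simulated data in which every gene had this common variation, without the split between replicates seen in the suprabasal markers. Alternatives were DESeq2 1.42.0, limma-voom 3.58.1, RLE factors, no filter, each library left out and, chosen after seeing the data, a suprabasal covariate.

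The members and lists were chosen with earlier results of these data known. The named genes are the members, up to 4 passing genes with the smallest p per list (or the smallest p where none passed) and the 3 genes nearest to the member with the smallest p and to that with the highest mean CPM. Positions and exon lengths are from GENCODE M21 (GRCm38), and promoters from RefSeq, matched by symbol for 8 of 10 members.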

Additional observations from a re-analysis of the deposited data

How the results depend on the processing

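Junb and Ier3 passed in each of the 9 alternatives, and every tested member but Fos and Fosb kept the sign of its log2 fold change in all of them. With 1 library left out, the log2 fold change of Fos ran from -0.362 (without Foxp3-DTR D) to 1.019 (without WT A) and that of Fosb from -0.113 (without Foxp3-DTR D) to 1.317 (without Foxp3-DTR C). No paired analysis was possible because the groups share only the replicate letter C. Leaving out 1 library leaves a group with a lone sample, which is assumed to vary like the other group. Over these 4 fits, 2 to 3 members rose and 0 to 1 fell (Atf3 rose and Jund fell without WT C), and over all genes 66 to 203 rose and 14 to 220 fell, lowest without Foxp3-DTR C and highest without Foxp3-DTR D. Of the lists, 2 to 9 other immediate early genes rose and 0 to 2 fell, 1 to 2 related bZIP genes rose and 0 to 1 fell, and 1 to 3 AP-1 targets rose and 0 to 1 fell. The cause of these differences was not tested.

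Over all genes the counts that rose and fell were 489 and 514 with DESeq2, 277 and 252 with no low-count filter, 70 and 23 with limma-voom, and 565 and 618 with the suprabasal covariate, chosen after seeing the data. The covariate was computed from these counts and takes up the difference between the replicates of each group. With 4 libraries, this fit has little left from which to estimate variation. Its score includes Calml3, which differed between the genotypes, and Lor, which is also in the list of AP-1 targets. With the covariate, 4 members rose, Fosl2 (edgeR adjusted p = 0.0474) and Atf3 (0.00804) beside Junb and Ier3, where 565 of all 12920 genes rose. Of other immediate early genes, 13 rose and 3 fell with DESeq2, 10 and 2 with no filter, and 11 and 3 with the covariate. Related bZIP genes that rose were 4, 2 and 4 in the same order, and MAP kinase and SRF inputs that rose were 1, 1 and 1. AP-1 targets that rose were 4, 2 and 5, and those that fell 2, 1 and 2. With limma-voom 4 other immediate early genes rose. RLE factors left each of these list counts as reported. Depth limits Fosb, Fosl1 and Atf3, which had 5 to 157 counts per library.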
